A study of Homo sapiens with 18 samples.

Results

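The members described here are 34 genes of the hypoxia-inducible factor (HIF) pathway outside glycolysis, namely the HIF subunits, the enzymes that sense oxygen or turn HIF over, and targets that act on pH, mitochondria, collagen, blood vessels, chromatin or protein folding. They were listed by gene symbol and known role, with earlier results of these data known. All 34 matched 1 Ensembl gene identifier each among the 61806 in the deposited table, and all 34 passed the filter on low values (1 TPM, the unit of a transcript's length-scaled share of a library, in at least 3 libraries) that left 18537 genes for testing. They were followed in LoVo and DLD-1, human colorectal adenocarcinoma lines. Each line had 3 libraries labelled EV, 3 labelled as overexpressing LIN28B without treatment, and 3 of LIN28B cells given the drug alpelisib at 5 µM, 18 libraries in all. LIN28B binds precursors of the let-7 microRNAs and keeps them from being processed, and alpelisib inhibits the alpha isoform of phosphatidylinositol 3-kinase (PI3K), which passes growth factor signals to AKT and mTOR. The series title links LIN28B to PI3K and AKT signalling, which the drug arm addresses. No group combined EV with alpelisib. The labels do not say how LIN28B was introduced, whether a line was 1 clone, how long the drug was given or what untreated cells received. Nor do they say that libraries of a group were grown apart, so a p-value here reflects the spread of these libraries alone, and that spread may be technical.

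HIF is a dimer of an alpha subunit, HIF1A or EPAS1 (also called HIF-2 alpha), with ARNT. In the presence of oxygen the prolyl hydroxylases EGLN1, EGLN2 and EGLN3 mark the alpha subunits for the VHL ubiquitin ligase, and HIF1AN, an asparaginyl hydroxylase, blocks their transcriptional activity. When oxygen is short, or when growth factor signals through mTOR raise HIF1A synthesis, the dimer binds hypoxia response elements and raises its targets, in colorectal tumours as in other tissues. EGLN3 is itself a target, so the pathway holds a negative feedback loop. HIF activity is set mostly by protein stability, which messenger RNA levels do not report.

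Several facts of the libraries bear on what follows. LIN28B was higher in every LIN28B library than in every EV library of its line, and it was also lower in the alpelisib libraries (138.9 to 160.3 TPM) than in the untreated LIN28B libraries (408.4 to 706 TPM). The part of this difference in the alpelisib results was not tested. Values after ± are SD over the 3 libraries of a group unless named as SE. The LIN28B libraries that carry the LoVo label were closer to DLD-1 LIN28B (Pearson's r of 0.9636 to 0.968 across tested genes, which are not independent replicates) than to LoVo EV (0.8904 to 0.9176), and the r of LoVo EV with DLD-1 EV covered much the same range (0.8864 to 0.9181). They are therefore called LoVo-labelled throughout, and every direction between LoVo EV and them depends on a line label that these data do not settle. Mitochondrial transcripts took 24.02, 23.06 and 14.52% of the TPM in LoVo EV and 7.24 to 15.84% elsewhere, which lowers all other TPM values of a library in proportion. With these transcripts left out of the total, LIN28B against EV under the LoVo label called 24 members higher and 6 lower. Over all tested genes the same fit called 6068 higher and 4188 lower. Of 11 epithelial markers 10 had a mean of at least 1 TPM over the libraries (CDX1 did not). Of 7 fibroblast markers 2 reached that mean (COL1A1 and PDGFRB), as did 1 of 5 endothelial and 2 of 6 immune markers, while COL1A2 was listed at 0 everywhere and PTPRC, the leukocyte antigen CD45, was near 0. The summed fibroblast markers (9.62 to 15.32 TPM in LoVo EV, 3.547 to 8.997 elsewhere) and immune markers (10.14 to 17.29 TPM in LoVo EV, 2.173 to 7.535 elsewhere) were highest in LoVo EV, mainly through COL1A1 (mean 11.79 TPM) and CD68 (10.85 TPM). Their part in the differences between LoVo EV and other groups was not tested. Sequencing depth is unknown. In bulk RNA, fewer cells expressing a gene and less RNA per cell cannot be told apart.

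The sequence core of a hypoxia response element is ACGTG or GCGTG. RefSeq promoter windows of 300 bases (250 before to 50 after the annotated start, GRCh38.p14) were found for 26 members, and were searched on both strands for each core. ACGTG, read in either direction, occurred in 13 of the 26 windows (50%) against 21.6% of 27305 promoter windows of the same length. GCGTG occurred in 14 (53.8%) against 36.3%, and at least 1 of the cores in 20 (76.9%) against 48.4%. Examples from windows that hold ACGTG are shown for ANKRD37, ERO1A, P4HA1, the oxygen sensor EGLN1, WSB1 and CA9, which fell with alpelisib. Another is from BNIP3, which was not called with alpelisib. Both CA9 and BNIP3 departed from most members by their high levels in LoVo EV. The windows of WSB1 and ANKRD37 each hold 3 matches, where a CACGTG is counted on each strand. They have the ACGTG core or its reverse complement CACGT in capitals, 5′ to 3′ on the strand of the gene.
ANKRD37, distal: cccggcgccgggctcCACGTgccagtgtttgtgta
ANKRD37, proximal: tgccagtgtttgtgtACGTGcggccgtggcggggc
ERO1A: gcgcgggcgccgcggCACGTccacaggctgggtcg
P4HA1: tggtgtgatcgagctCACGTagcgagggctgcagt
EGLN1: gcggggccgtggtgtACGTGcagagcgc
WSB1: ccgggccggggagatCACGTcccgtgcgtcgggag
CA9: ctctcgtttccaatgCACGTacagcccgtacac
BNIP3: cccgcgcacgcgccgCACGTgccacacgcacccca
The sites lie at ANKRD37 distal at chr4:185396664-185396698 (plus strand, 162 bases before the start); ANKRD37 proximal at chr4:185396683-185396717 (plus strand, 143 bases before the start); ERO1A at chr14:52695653-52695687 (minus strand, 114 bases before the start); P4HA1 at chr10:73096933-73096967 (minus strand, 86 bases before the start). The others lie at EGLN1 at chr1:231422288-231422315 (minus strand, 13 bases before the start); WSB1 at chr17:27293998-27294032 (plus strand, 101 bases before the start); CA9 at chr9:35673895-35673927 (plus strand, 18 bases before the start); BNIP3 at chr10:131982038-131982072 (minus strand, 134 bases before the start). In ANKRD37 (distal) and BNIP3 the capitals are followed by g, so that CACGTG reads as the core on both strands. CA9 and BNIP3, whose levels in LoVo EV departed from those of most members, thus carry the core as ANKRD37 and ERO1A do. The windows of ARNT, HIF1AN, EGLN3, P4HA2, MXI1 and RORA held neither core, and that of IGFBP3, among others, held GCGTG alone. All of these named genes without ACGTG fell with alpelisib under both labels, except HIF1AN, which was called in DLD-1 alone. A match is only a run of letters, and none found says only that the letters are not in that window. For each symbol only the first listed window was searched. Distances count from the start site of that window, which can differ from the start of the gene span given below. The ANKRD37 and CA9 sites lie after the first base of those spans (185396021 and 35673856). The windows of EGLN3 and RORA, which held neither core, also lie well inside the annotated gene spans.

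**Figure D1:**
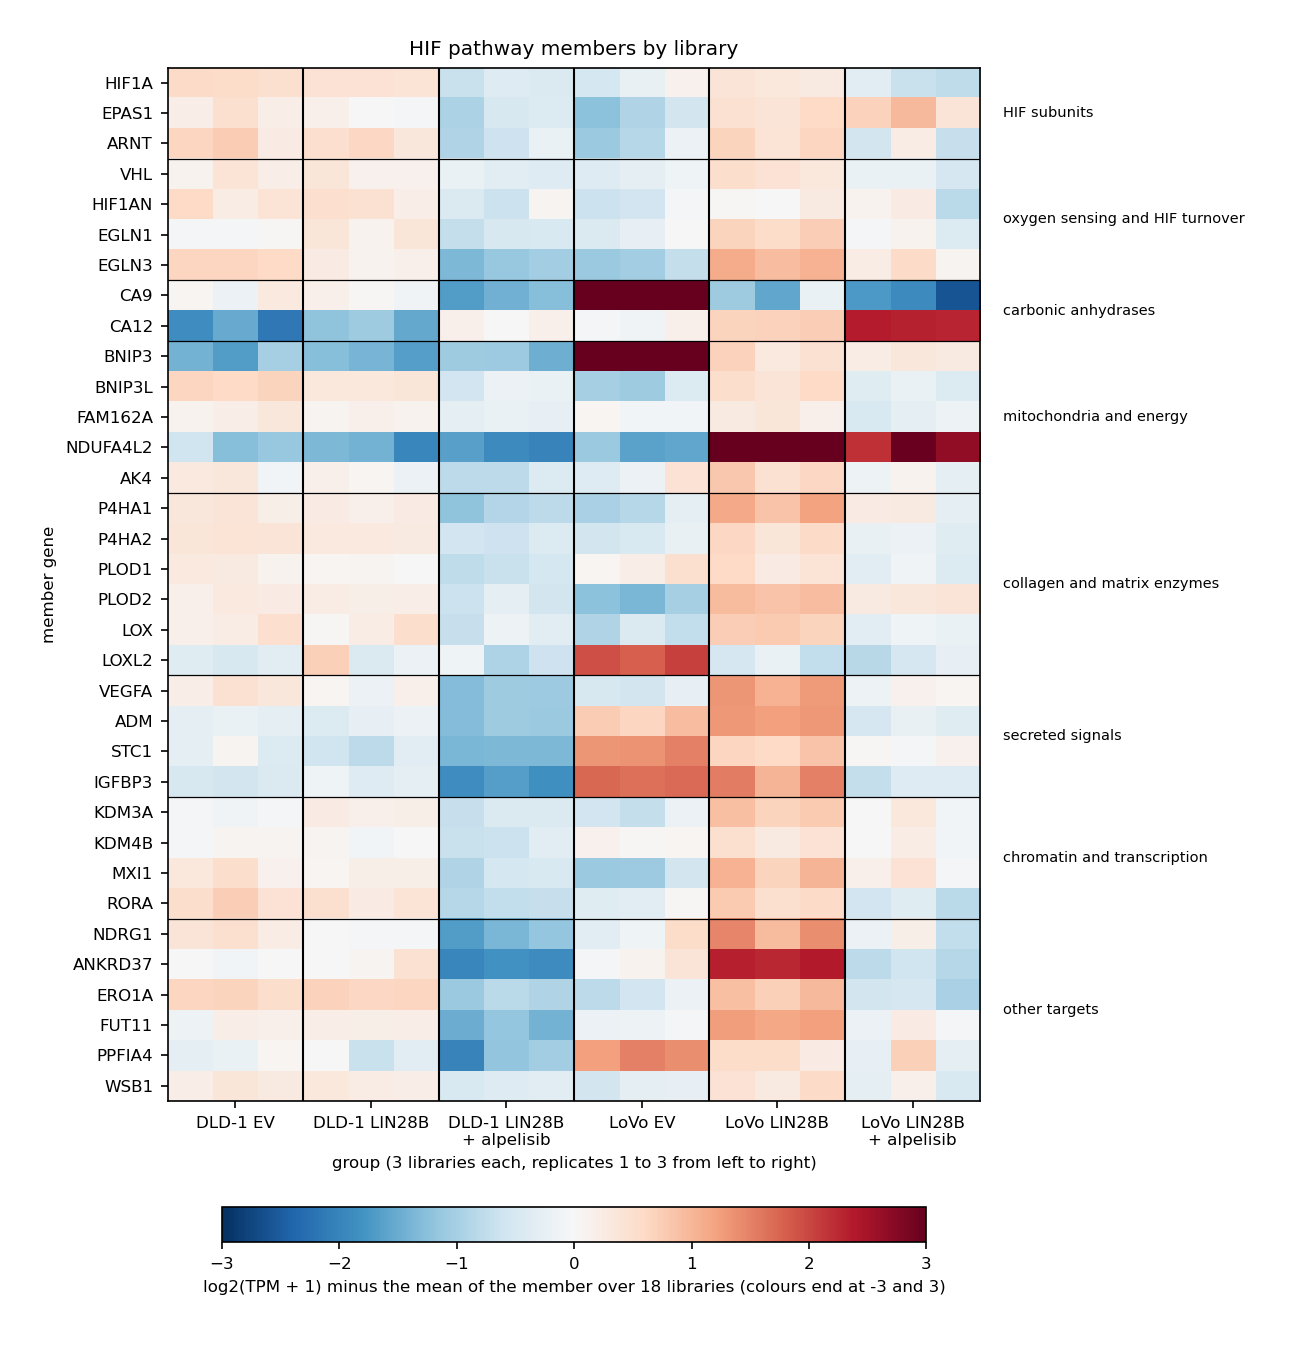
Each of the 34 members (rows, grouped by role) in each of the 18 libraries (columns), as log2(TPM + 1) minus the member's mean over all libraries, with red for higher and blue for lower values. The alpelisib columns are bluer than the LIN28B columns beside them for most rows, CA12 runs the other way, and CA9, BNIP3 and LOXL2 are red in the 3 LoVo EV libraries.

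Alpelisib versus untreated LIN28B cells asked how the pathway stood after PI3K inhibition. In DLD-1, 30 of 34 members fell and 1 rose, against a background of 21.9% of all tested genes lower and 9.05% higher (limma on log2(TPM + 1), Benjamini-Hochberg adjusted p under 0.05 over all 18537 genes). Among LoVo-labelled libraries 28 fell and 1 rose, against 24.6% and 15.1%. The median log2 change of the members was -0.78 in DLD-1 and -0.74 under the LoVo label, beside -0.09 and -0.06 over all genes. No library is shared between these contrasts. The 27 members lower in both spanned all 8 role groups, from HIF1A to the collagen hydroxylase P4HA1 and the growth factor VEGFA. CA12, a carbonic anhydrase, was higher in both. The share of all genes called the same way in both contrasts was not counted. Under median-of-ratios scaling, which moved the median of all genes by 0.10 in DLD-1 and turned the split over all genes to 2619 higher and 2886 lower (from 1677 and 4067), 28 members were lower in DLD-1 and 26 under the LoVo label. The split over all genes under the LoVo label then went from 2807 higher and 4557 lower to 3592 and 3745. Of the calls, 25 of 30 falls in DLD-1 and 26 of 28 under the LoVo label held in every alternative run that tested them, as did both rises of CA12. STC1, counted among the 25, did not pass the filter in the fit of the compared DLD-1 groups alone.

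**Figure D2:**
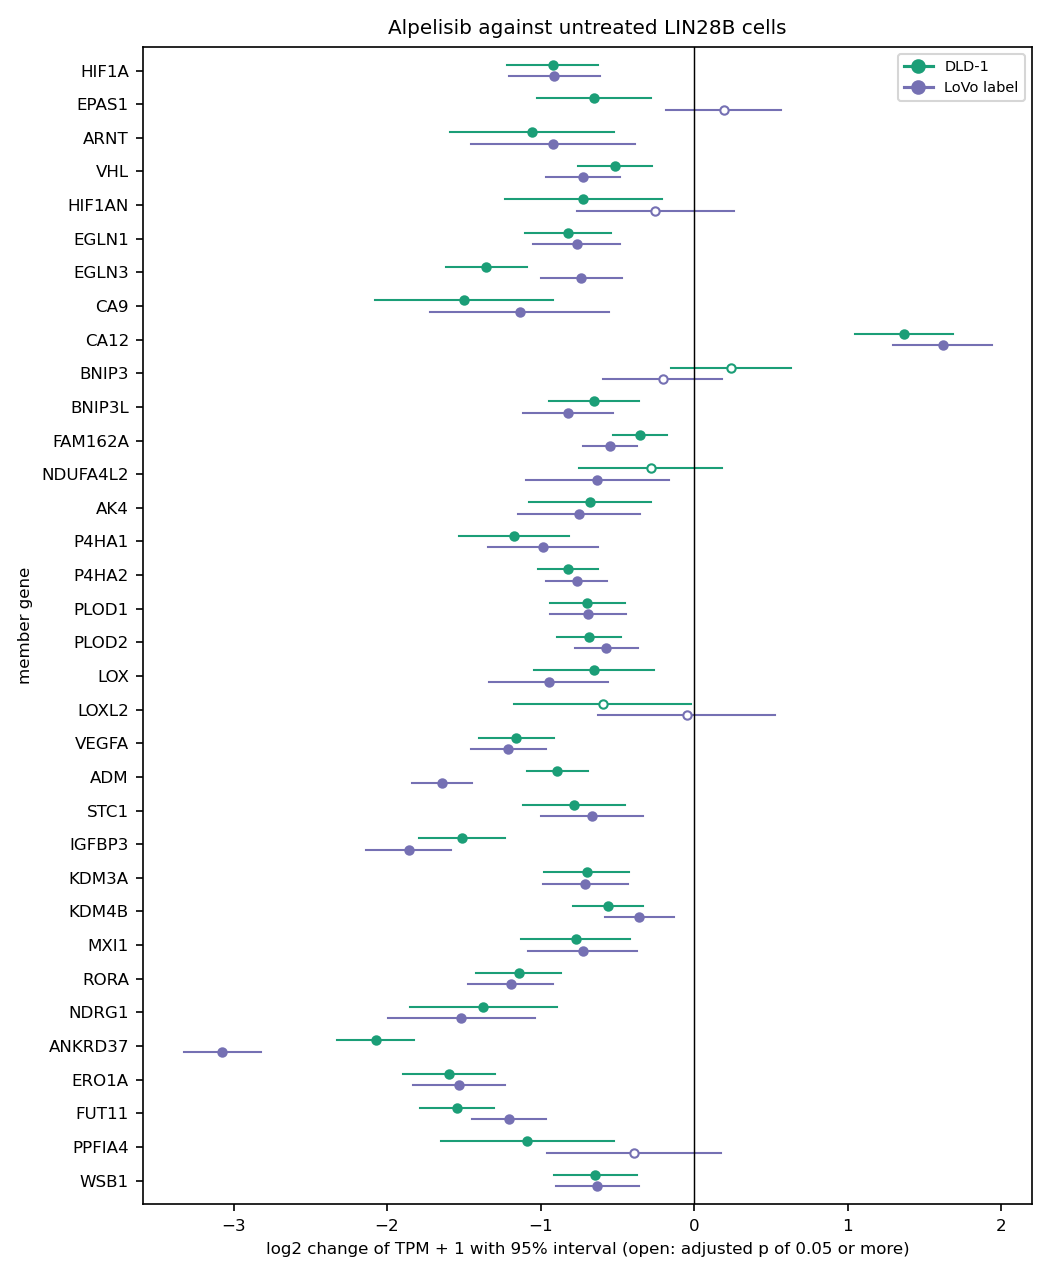
Log2 change of TPM + 1 with alpelisib for each member, with its 95% interval from the model, in DLD-1 (green) and in the LoVo-labelled libraries (purple), where filled points have an adjusted p under 0.05. Nearly all points lie left of 0, ANKRD37 lies farthest left at -2.07 and -3.07, and CA12 alone is called to the right.

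LIN28B versus EV asked what LIN28B overexpression did to the same genes. In DLD-1, 2 members were higher and 5 lower at an unadjusted p under 0.05 (limma), a threshold at which all genes were not counted. At an adjusted p under 0.05 limma called 0 of 34 members, where 2.53% of all genes were called, 1.21% higher and 1.32% lower. That background of 469 genes dropped to between 185 and 228 when any single library of the contrast was left out, and to 290 with no filter on low values. The median log2 change of the members was -0.07, beside 0.02 over all genes. The LIN28B libraries lay wholly above EV for 3 members and wholly below for 9, against 12.9% and 9.89% of all genes. Other settings of the model called at most 3 members, and fits that left out 1 library called 0 or 1. The members nearest to a call were CA12, at 1.04 ± 0.446 TPM in EV and 2.004 ± 0.483 TPM in LIN28B (SD, n = 3; log2 change 0.57, limma, adjusted p = 0.0585; the groups overlapped), and EGLN3, at 129.7 ± 2.87 and 93.9 ± 4.32 TPM (log2 change -0.46, limma, adjusted p = 0.0601).

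Under the LoVo label the same contrast called 26 members higher and 6 lower, where 40.3% of all genes were called higher and 16.5% lower, so that most tested genes were called as well. The median log2 change of the members was 0.85, beside 0.26 over all genes. Median-of-ratios scaling moved the median of all genes by -0.29, turned the split over all genes from 7463 higher and 3067 lower to 4882 and 5175, and left 21 members higher and 6 lower. The members called lower were CA9, BNIP3, LOXL2, STC1, IGFBP3 and PPFIA4, and HIF1AN and PLOD1 were not called. With LoVo EV replicates 1 and 2, those with most mitochondrial RNA, both left out, HIF1A, ARNT, CA12, AK4, KDM4B, NDRG1, IGFBP3 and PPFIA4 lost their calls. The alternative was chosen after the data were seen, and LOXL2 did not pass the filter in it. The 2 LIN28B contrasts differed by a test of the difference itself for 28 members, 24 with the LoVo-labelled change higher and 4 with it lower, against 30.4% and 12.4% of all genes. In each line the alpelisib and LIN28B contrasts share the untreated LIN28B libraries, so a high value there moves them in opposite directions, and their values are given side by side only.

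**Figure D3:**
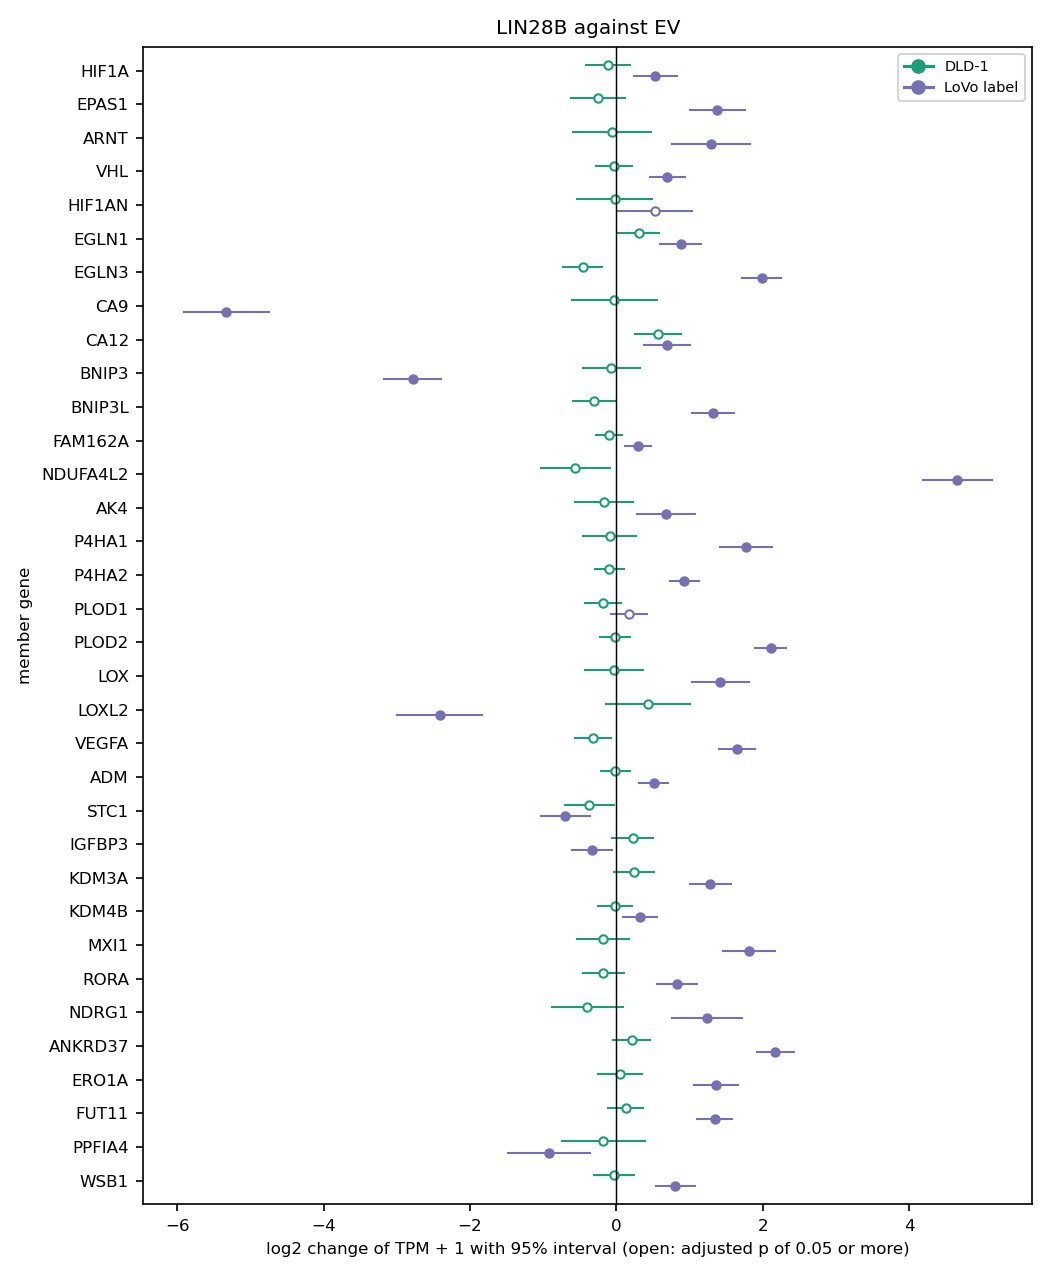
Log2 change of TPM + 1 of LIN28B over EV for each member, with its 95% interval from the model, in DLD-1 (green) and under the LoVo label (purple), where filled points have an adjusted p under 0.05. The DLD-1 points are all open and lie between -0.56 and 0.57, while under the LoVo label NDUFA4L2 lies at 4.66 and CA9 at -5.33.

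The subunits of HIF itself were lower with alpelisib in DLD-1. HIF1A (ENSG00000100644; GRCh38 chromosome 14, 61695513 to 61748259, plus strand), the alpha subunit that drives most early hypoxia genes, measured 64.5, 63.7 and 60.2 TPM in DLD-1 EV, 58.6, 58.1 and 57.3 TPM in DLD-1 LIN28B and 26.5, 32.7 and 31.6 TPM in DLD-1 LIN28B with alpelisib. HIF1A under the LoVo label measured 29.5, 36.6 and 47.2 TPM in EV, 56.0, 53.9 and 52.1 TPM in LIN28B and 34.2, 26.6 and 24.7 TPM with alpelisib. Each alpelisib library thus lay below each untreated LIN28B library of its label, and the log2 changes were -0.92 ± 0.14 (SE; limma, adjusted p = 0.000219) in DLD-1 and -0.91 ± 0.14 (SE; limma, adjusted p = 0.000107) under the LoVo label. ARNT, the shared partner subunit, fell from 38.5 ± 3.63 to 18.3 ± 4.84 TPM in DLD-1 (log2 change -1.06, limma, adjusted p = 0.00515) and from 41.1 ± 3.96 to 22.2 ± 8.47 TPM under the LoVo label (-0.92, limma, adjusted p = 0.00855).

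EPAS1, the second alpha subunit, was called in DLD-1 and not under the LoVo label. It measured 27.7, 33.9 and 27.9 TPM in DLD-1 EV, 26.7, 24.2 and 23.6 TPM in DLD-1 LIN28B and 12.1, 16.98 and 17.9 TPM in DLD-1 LIN28B with alpelisib. EPAS1 under the LoVo label measured 9.74, 12.5 and 16.1 TPM in EV, 33.8, 32.1 and 37.1 TPM in LIN28B and 39.6, 48.2 and 31.8 TPM with alpelisib. It fell in DLD-1 with alpelisib (log2 change -0.65 ± 0.18, SE; limma, adjusted p = 0.0109), although without DLD-1 alpelisib replicate 1 the adjusted p was 0.0652. The LoVo-labelled groups overlapped and the log2 change was 0.19 ± 0.18 (SE; limma, adjusted p = 0.417). The difference between those changes was 0.84 (95% interval 0.32 to 1.37; limma, adjusted p = 0.135), so EPAS1 was not shown to respond differently under the 2 labels. EPAS1 was 2.55-fold higher in LoVo-labelled than in DLD-1 cells under alpelisib, and none of the 3 libraries of one group reached the level of the other. Against EV it rose 2.68-fold under the LoVo label with LIN28B (log2 change 1.38, limma, adjusted p = 5.22e-06).

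EGLN3, the hydroxylase that is itself induced by HIF, had the largest fall in DLD-1 of the 4 members that sense oxygen or turn HIF over. It measured 131, 132 and 126 TPM in DLD-1 EV, 98.6, 90.2 and 92.9 TPM in DLD-1 LIN28B and 31.8, 37.01 and 39.9 TPM in DLD-1 LIN28B with alpelisib. EGLN3 under the LoVo label measured 37.99, 40.2 and 50.4 TPM in EV, 182, 159 and 174 TPM in LIN28B and 97.95, 125 and 87.95 TPM with alpelisib. No alpelisib library overlapped an untreated LIN28B library, and the fall was 2.59-fold in DLD-1 (log2 change -1.35 ± 0.12, SE; limma, adjusted p = 2.23e-06) and 1.65-fold under the LoVo label (-0.73 ± 0.12, SE; limma, adjusted p = 0.000247). The difference between those changes, 0.62 (95% interval 0.25 to 0.99; limma, adjusted p = 0.121), did not pass. With LIN28B alone EGLN3 went from 42.9 ± 6.61 to 172 ± 11.8 TPM under the LoVo label, a 4.0-fold rise.

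EGLN1, the main prolyl hydroxylase in most cells, fell from 61.2 ± 6.21 to 34.2 ± 3.53 TPM in DLD-1 (log2 change -0.82, limma, adjusted p = 0.000341) and from 79.3 ± 5.27 to 46.7 ± 8.41 TPM under the LoVo label (-0.77, limma, adjusted p = 0.000298). VHL, the substrate subunit of the ubiquitin ligase, fell from 30.9 ± 2.96 to 21.3 ± 1.47 TPM in DLD-1 (-0.52, limma, adjusted p = 0.003) and from 36.2 ± 2.95 to 21.6 ± 2.60 TPM under the LoVo label (-0.72, limma, adjusted p = 0.000127). HIF1AN was the least steady of the members that sense oxygen or turn HIF over. It fell in DLD-1 by 0.72 on the log2 scale (limma, adjusted p = 0.0325), a call lost under median-of-ratios scaling (adjusted p = 0.0621), with no filter on low values (0.0773), and without any single one of replicates 1 and 2 of DLD-1 LIN28B or of DLD-1 alpelisib (0.0835 to 0.133). Under the LoVo label its change was -0.25 (limma, adjusted p = 0.445), and it turned to 0.07 without LoVo-labelled alpelisib replicate 3.

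The carbonic anhydrases CA9 and CA12 are membrane enzymes that face outward, hydrate carbon dioxide and acidify the medium, and both are known as hypoxia targets. They went opposite ways. CA9 (ENSG00000107159; GRCh38 chromosome 9, 35673856 to 35681159, plus strand) measured 6.68, 5.55 and 8.12 TPM in DLD-1 EV, 7.24, 6.60 and 5.89 TPM in DLD-1 LIN28B and 1.30, 1.74 and 2.04 TPM in DLD-1 LIN28B with alpelisib. CA9 under the LoVo label measured 159, 142 and 165 TPM in EV, 2.57, 1.51 and 5.50 TPM in LIN28B and 1.25, 0.970 and 0.238 TPM with alpelisib. The 3 LoVo EV libraries thus stood 48.6-fold above the LoVo-labelled LIN28B libraries (log2 change -5.33 ± 0.27, SE; limma, adjusted p = 1.57e-10) and 22.9-fold above DLD-1 EV, and no other group reached 10 TPM. With alpelisib CA9 fell from its LIN28B level, 3.88-fold in DLD-1 (-1.50 ± 0.27, SE; limma, adjusted p = 0.000843) and 3.90-fold under the LoVo label (-1.14 ± 0.27, SE; limma, adjusted p = 0.00364), where 2 of the 3 libraries were under 1 TPM and the log2(TPM + 1) scale understates the change. CA9 was also the single member called lower in LoVo-labelled than in DLD-1 LIN28B cells (log2 difference -0.96, limma, adjusted p = 0.0267). This call was lost in 7 of the alternatives, for example without LoVo-labelled LIN28B replicate 2 (adjusted p = 0.133).

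CA12 (ENSG00000074410; GRCh38 chromosome 15, 63321378 to 63382161, minus strand) measured 0.979, 1.51 and 0.629 TPM in DLD-1 EV, 2.13, 2.41 and 1.47 TPM in DLD-1 LIN28B and 6.95, 6.17 and 6.93 TPM in DLD-1 LIN28B with alpelisib. CA12 under the LoVo label measured 6.05, 5.66 and 7.02 TPM in EV, 10.3, 10.7 and 10.97 TPM in LIN28B and 35.6, 34.9 and 33.99 TPM with alpelisib. It was the only member called higher with alpelisib, 3.33-fold in DLD-1 (log2 change 1.37 ± 0.15, SE; limma, adjusted p = 1.47e-05) and 3.27-fold under the LoVo label (1.62 ± 0.15, SE; limma, adjusted p = 9.65e-07), with no overlap between groups in either. The rise was called in every alternative run. CA12 under the LoVo label also stood above DLD-1 in each arm, 6.0-fold in EV, 5.32-fold in LIN28B and 5.21-fold with alpelisib. Of the 15 carbonic anhydrase genes listed, 6 were tested, CA9 and CA12 among them. Over all tested genes, 9.05% rose and 21.9% fell with alpelisib in DLD-1. In DLD-1, 2 of the 6 rose and 2 fell with alpelisib, the others called being CA11, a non-catalytic relative, from 21.4 ± 1.13 to 30.3 ± 4.34 TPM (log2 change 0.48; limma, adjusted p = 0.0337), and CA5B, a mitochondrial enzyme, from 4.70 ± 1.06 to 1.97 ± 0.655 TPM (-0.95; limma, adjusted p = 0.0224). Under the LoVo label CA5B fell (log2 change -0.89; limma, adjusted p = 0.0248) and CA11 was not called (0.30; limma, adjusted p = 0.15).

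**Figure D4:**
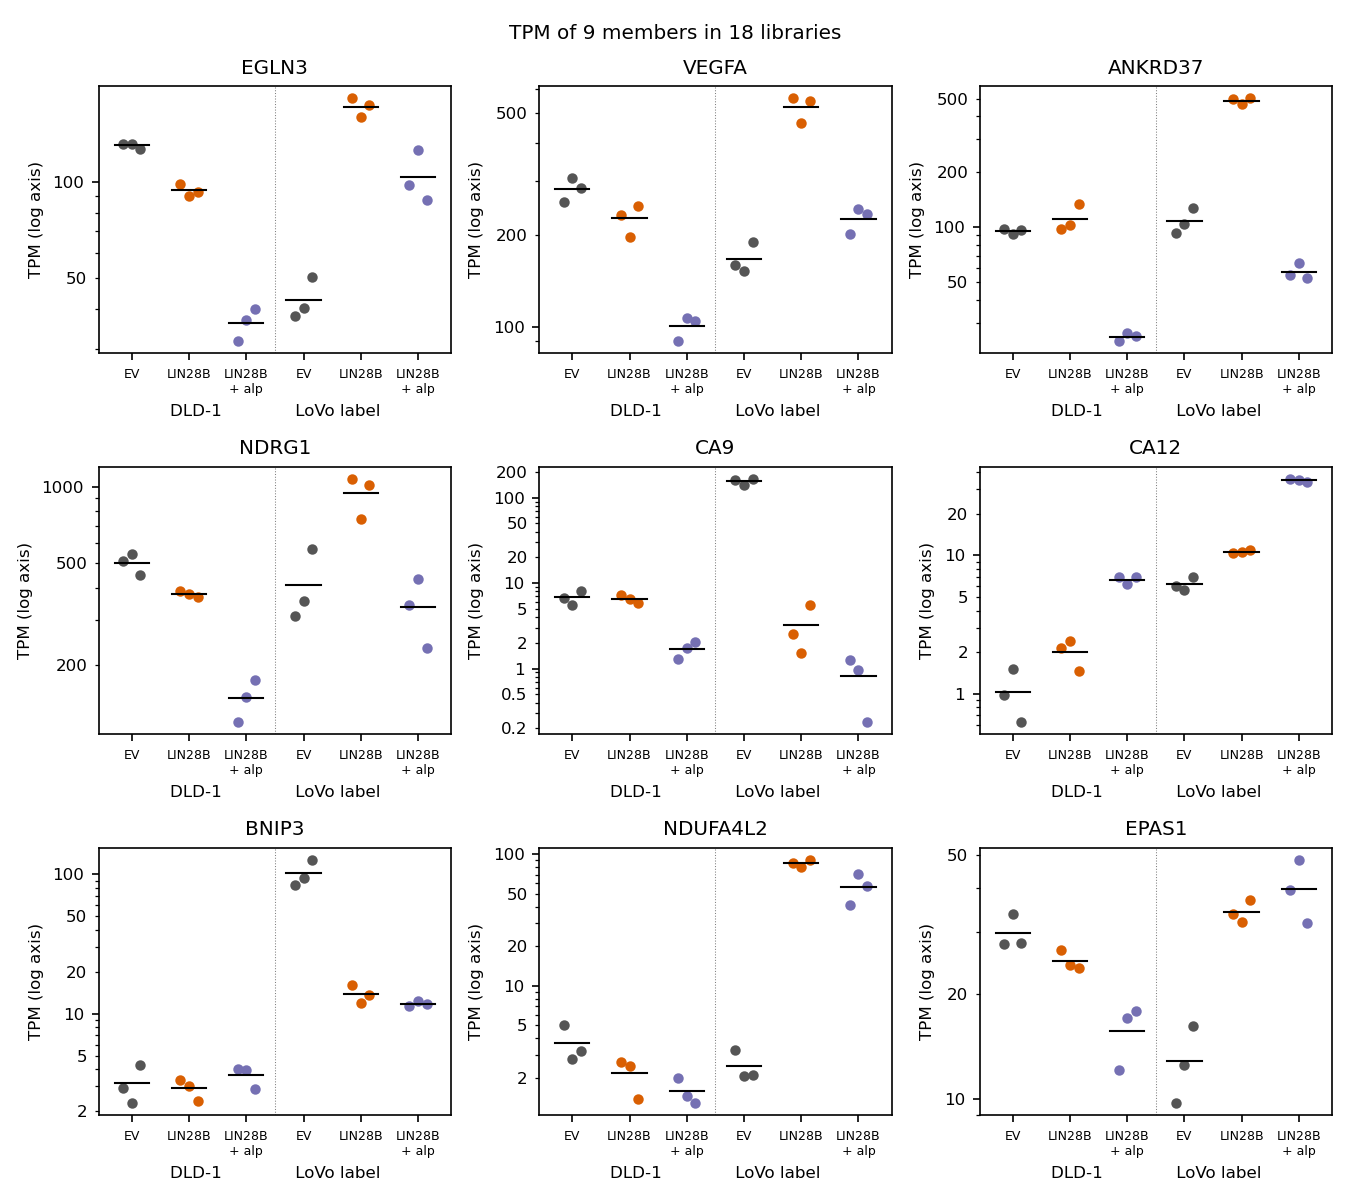
TPM of 9 members in each library on log axes, with DLD-1 left and LoVo-labelled libraries right of the dotted line in each panel, bars at group means, and alp for alpelisib. EGLN3, VEGFA, ANKRD37 and NDRG1 are lowest with alpelisib in DLD-1, CA9 and BNIP3 are highest in the 3 LoVo EV libraries, and CA12 is highest with alpelisib under each label.

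BNIP3 and BNIP3L are mitophagy receptors of the outer mitochondrial membrane, and although related they behaved differently here. BNIP3 measured 2.92, 2.29 and 4.27 TPM in DLD-1 EV, 3.34, 3.03 and 2.35 TPM in DLD-1 LIN28B and 4.03, 3.96 and 2.85 TPM in DLD-1 LIN28B with alpelisib. BNIP3 under the LoVo label measured 84.5, 94.6 and 126 TPM in EV, 16.1, 11.9 and 13.5 TPM in LIN28B and 11.3, 12.3 and 11.8 TPM with alpelisib. It was 7.36-fold lower in LoVo-labelled LIN28B than in LoVo EV (log2 change -2.78 ± 0.18, SE; limma, adjusted p = 3.13e-09), and LoVo EV stood 32.2-fold above DLD-1 EV. Alpelisib gave overlapping groups and no call under either label, with log2 changes of 0.24 (limma, adjusted p = 0.352) and -0.21 (limma, adjusted p = 0.409). The annotation names 39 pseudogenes of BNIP3, and how reads shared with them were counted is not given in the sources used here.

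BNIP3L, the more abundant of the pair by mean TPM in all 6 groups, fell from 270.3 ± 3.96 to 173 ± 25.3 TPM in DLD-1 (log2 change -0.65, limma, adjusted p = 0.00235) and from 305 ± 22.6 to 172 ± 14.6 TPM under the LoVo label (-0.82, limma, adjusted p = 0.000231). FAM162A, a mitochondrial protein linked to hypoxic cell death, changed little in size, from 258 ± 6.26 to 202 ± 4.64 TPM in the DLD-1 cells and from 285 ± 20.9 to 195 ± 20.9 TPM under the LoVo label, both called (-0.35, limma, adjusted p = 0.00456 and -0.55, limma, adjusted p = 9.16e-05). The DLD-1 call was lost under median-of-ratios scaling (adjusted p = 0.135), and its rise with LIN28B under the LoVo label (log2 change 0.29) turned to -0.07 under that scaling. AK4, a mitochondrial adenylate kinase, fell 1.62-fold and 1.70-fold (adjusted p = 0.0122 and 0.00466, limma), the DLD-1 call being lost without replicate 1 of DLD-1 LIN28B (adjusted p = 0.0522) or of DLD-1 alpelisib (0.0506).

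NDUFA4L2, a complex IV-associated subunit that HIF induces to restrain respiration, was high in the LoVo-labelled LIN28B libraries, with and without alpelisib, and at a few TPM in all others. It measured 5.04, 2.79 and 3.22 TPM in DLD-1 EV, 2.64, 2.46 and 1.39 TPM in DLD-1 LIN28B and 1.98, 1.45 and 1.29 TPM in DLD-1 LIN28B with alpelisib. NDUFA4L2 under the LoVo label measured 3.26, 2.05 and 2.11 TPM in EV, 86.2, 80.7 and 90.3 TPM in LIN28B and 40.9, 70.5 and 57.6 TPM with alpelisib. The LIN28B libraries were 34.7-fold above LoVo EV (log2 change 4.66 ± 0.22, SE; limma, adjusted p = 6.18e-11) and 39.6-fold above DLD-1 LIN28B. With alpelisib the LoVo-labelled level was 1.52-fold lower (-0.63 ± 0.22, SE; limma, adjusted p = 0.0318), a call lost in 5 of 6 fits that left out 1 library and under 3 other settings (adjusted p = 0.0503 to 0.158). In DLD-1 the groups overlapped (log2 change -0.28, limma, adjusted p = 0.36).

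The collagen-modifying enzymes fell with alpelisib except for LOXL2. P4HA1, a catalytic subunit of collagen prolyl 4-hydroxylase, measured 150.2, 155 and 133 TPM in DLD-1 EV, 139.6, 131 and 139 TPM in DLD-1 LIN28B and 50.8, 63.1 and 67.6 TPM in DLD-1 LIN28B with alpelisib. P4HA1 under the LoVo label measured 59.8, 64.4 and 95.5 TPM in EV, 259, 214 and 272 TPM in LIN28B and 139, 142 and 97.4 TPM with alpelisib. Without overlap, it fell 2.26-fold in DLD-1 (log2 change -1.17 ± 0.17, SE; limma, adjusted p = 0.000151) and 1.97-fold under the LoVo label (-0.98 ± 0.17, SE; limma, adjusted p = 0.000283), and it was 3.39-fold higher in LoVo-labelled LIN28B than in LoVo EV. P4HA2, its paralogue, went from 112 ± 1.37 to 63.3 ± 4.96 TPM in the DLD-1 cells and from 132 ± 12.5 to 77.4 ± 5.34 TPM under the LoVo label, and the lysyl hydroxylase PLOD1 from 89.6 ± 2.38 to 55.1 ± 4.30 TPM in the DLD-1 cells and from 117 ± 14.98 to 72.2 ± 8.14 TPM under the LoVo label. Both fell under each label. These 4 changes lay between -0.82 and -0.69 log2 (limma, adjusted p = 1.23e-05 to 0.000466).

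PLOD2, the lysyl hydroxylase of collagen telopeptides, measured 206, 224 and 217 TPM in DLD-1 EV, 216, 209 and 213 TPM in DLD-1 LIN28B and 118, 153 and 126 TPM in DLD-1 LIN28B with alpelisib. PLOD2 under the LoVo label measured 78.4, 70.1 and 92.01 TPM in EV, 355, 331 and 352 TPM in LIN28B and 222, 234 and 242 TPM with alpelisib. The alpelisib groups lay below the untreated groups in both (log2 changes -0.69, limma, adjusted p = 0.000136 and -0.57, limma, adjusted p = 0.000268), yet the LoVo-labelled alpelisib libraries stayed 2.91-fold above LoVo EV. LOX, a lysyl oxidase that crosslinks collagen, was scarce, at 1.76 ± 0.472 TPM in DLD-1 LIN28B and 0.758 ± 0.321 TPM with alpelisib (log2 change -0.65, limma, adjusted p = 0.0137), and at 2.76 ± 0.145 and 0.954 ± 0.146 TPM under the LoVo label (-0.95, limma, adjusted p = 0.000771). The DLD-1 call was lost without DLD-1 LIN28B replicate 3 (adjusted p = 0.0678), without DLD-1 alpelisib replicate 1 (0.075) and in the fit of only the groups compared (0.056). LOXL2, a related oxidase, measured 6.88, 6.15 and 7.50 TPM in EV, 0.447, 0.771 and 0.232 TPM in LIN28B and 0.142, 0.450 and 0.730 TPM with alpelisib under the LoVo label, a 14.2-fold fall from EV to LIN28B (log2 change -2.41 ± 0.27, SE; limma, adjusted p = 1.36e-06). LOXL2 reached 1 TPM in only 4 libraries, 3 of them LoVo EV, and so passed the filter through that group. Outside LoVo EV it stayed under 3 TPM, and its alpelisib groups overlapped. The LoVo-labelled change of -0.05 changed sign without LoVo-labelled LIN28B replicate 2 (0.09) or LoVo-labelled alpelisib replicate 1 (0.11).

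All 4 secreted signals fell with alpelisib under both labels. VEGFA, the main angiogenic growth factor (ENSG00000112715; GRCh38 chromosome 6, 43770184 to 43786487, plus strand), measured 256, 308 and 285 TPM in DLD-1 EV, 233, 198 and 248 TPM in DLD-1 LIN28B and 90.2, 107 and 105 TPM in DLD-1 LIN28B with alpelisib. VEGFA under the LoVo label measured 159.9, 153 and 189.6 TPM in EV, 559, 465 and 548 TPM in LIN28B and 201, 244 and 233 TPM with alpelisib. The falls were 2.25-fold in DLD-1 (log2 change -1.16 ± 0.12, SE; limma, adjusted p = 5.36e-06) and 2.32-fold under the LoVo label (-1.21 ± 0.12, SE; limma, adjusted p = 1.26e-06), and their difference was -0.05 (95% interval -0.40 to 0.29). In DLD-1 the alpelisib libraries also lay 2.81-fold below EV, while under the LoVo label LIN28B alone was 3.13-fold above EV.

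ADM, the vasodilator peptide adrenomedullin, measured 87.7, 94.4 and 87.8 TPM in DLD-1 EV, 81.1, 90.7 and 95.2 TPM in DLD-1 LIN28B and 42.9, 50.9 and 48.9 TPM in DLD-1 LIN28B with alpelisib. ADM under the LoVo label measured 182, 168 and 206 TPM in EV, 267, 256 and 269 TPM in LIN28B and 76.2, 92.4 and 83.5 TPM with alpelisib. Its fall was 1.87-fold in DLD-1 (log2 change -0.89 ± 0.093, SE; limma, adjusted p = 8.73e-06) and 3.14-fold under the LoVo label (-1.64 ± 0.093, SE; limma, adjusted p = 7.91e-09), and the difference of -0.75 passed the test (95% interval -1.03 to -0.47; limma, adjusted p = 0.0119).

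IGFBP3, a binding protein of insulin-like growth factors, measured 9.41, 8.85 and 9.69 TPM in DLD-1 EV, 12.2, 10.1 and 10.8 TPM in DLD-1 LIN28B and 2.999, 3.62 and 3.04 TPM in DLD-1 LIN28B with alpelisib. IGFBP3 under the LoVo label measured 46.8, 44.8 and 45.8 TPM in EV, 40.8, 28.6 and 40.3 TPM in LIN28B and 7.82, 9.997 and 10.01 TPM with alpelisib. It fell 3.43-fold (log2 change -1.51 ± 0.13, SE; limma, adjusted p = 1.31e-06) and 3.94-fold (-1.86 ± 0.13, SE; limma, adjusted p = 7.08e-08) without overlap. Its small fall with LIN28B under the LoVo label (log2 change -0.33, limma, adjusted p = 0.0396) was lost without any single LoVo EV library and without LoVo-labelled LIN28B replicate 2 (adjusted p = 0.0681 to 0.247). STC1, a secreted glycoprotein hormone, was scarce, at 1.13, 0.871 and 1.58 TPM in DLD-1 LIN28B and 0.244, 0.276 and 0.266 TPM with alpelisib (log2 change -0.78, limma, adjusted p = 0.0016), and fell from 4.26 ± 0.535 to 2.31 ± 0.194 TPM under the LoVo label (-0.66, limma, adjusted p = 0.00321). LoVo EV held 7.53 ± 0.618 TPM, above every other group.

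All 4 regulators of chromatin and transcription fell under both labels. KDM3A, a histone H3 lysine 9 demethylase, fell 1.63-fold under each label (log2 changes -0.70, limma, adjusted p = 0.000965 and -0.71, limma, adjusted p = 0.000504), from 69.5 ± 2.75 to 42.5 ± 4.19 TPM in the DLD-1 cells and from 107 ± 9.12 to 65.2 ± 10.1 TPM under the LoVo label. KDM4B, a demethylase of the same broad family, fell 1.49-fold in DLD-1 (-0.56, limma, adjusted p = 0.00114) and 1.29-fold under the LoVo label (-0.36, limma, adjusted p = 0.0143), where the call was lost under median-of-ratios scaling (adjusted p = 0.0747), without LoVo-labelled LIN28B replicate 1 (0.0622) and without LoVo-labelled alpelisib replicate 3 (0.0695). MXI1, an antagonist of MYC, fell from 86.1 ± 4.54 to 50.5 ± 8.21 TPM in the DLD-1 cells and from 148 ± 20.99 to 89.2 ± 15.2 TPM under the LoVo label (-0.77, limma, adjusted p = 0.00284 and -0.73, limma, adjusted p = 0.00275). The nuclear receptor RORA fell most of the 4, 2.26-fold in DLD-1 (-1.14 ± 0.13, SE; limma, adjusted p = 2.05e-05) and 2.33-fold under the LoVo label (-1.19 ± 0.13, SE; limma, adjusted p = 5.03e-06). With LIN28B under the LoVo label MXI1 was 3.55-fold and KDM3A 2.44-fold above EV, and KDM4B, called higher by 0.32 log2, turned to -0.03 under median-of-ratios scaling.

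ANKRD37 (ENSG00000186352; GRCh38 chromosome 4, 185396021 to 185400628, plus strand), an ankyrin repeat protein whose promoter window above holds the core at both printed sites, fell most of all members on the log2(TPM + 1) scale. By the ratio of mean TPM the scarce STC1 fell more in DLD-1 (4.56-fold). ANKRD37 measured 97.6, 91.3 and 96.5 TPM in DLD-1 EV, 97.4, 102 and 133 TPM in DLD-1 LIN28B and 24.1, 26.5 and 25.5 TPM in DLD-1 LIN28B with alpelisib. ANKRD37 under the LoVo label measured 93.4, 104 and 127 TPM in EV, 494, 466 and 502 TPM in LIN28B and 55.2, 63.5 and 52.8 TPM with alpelisib. The falls were 4.37-fold (log2 change -2.07 ± 0.12, SE; limma, adjusted p = 1.86e-08) and 8.52-fold (-3.07 ± 0.12, SE; limma, adjusted p = 8.13e-11), and their difference, LoVo label minus DLD-1, was -0.9996 log2 (95% interval -1.35 to -0.65; limma, adjusted p = 0.00868). With LIN28B alone under the LoVo label ANKRD37 had risen 4.50-fold over EV (log2 change 2.17, limma, adjusted p = 3.16e-10). ADM and ANKRD37 were the only members called in the test of the difference between the alpelisib changes, both lower, where 0.21% of all genes were called lower and 0.637% higher. At an unadjusted p under 0.05, 3 members were higher and 2 lower, and all genes were not counted at that threshold. Exons of ANKRD37 overlap those of UFSP2 on the opposite strand, and whether counting used strand is not given in the sources used here.

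NDRG1, a stress-induced protein and the most abundant member by mean TPM in every group except DLD-1 LIN28B with alpelisib, measured 509, 542 and 451 TPM in DLD-1 EV, 389, 379.5 and 369 TPM in DLD-1 LIN28B and 119, 149.7 and 174 TPM in DLD-1 LIN28B with alpelisib. NDRG1 under the LoVo label measured 309.5, 355 and 567 TPM in EV, 1070, 746 and 1016 TPM in LIN28B and 342, 436 and 232 TPM with alpelisib. It fell 2.57-fold in DLD-1 (log2 change -1.37 ± 0.23, SE; limma, adjusted p = 0.000404) and 2.81-fold under the LoVo label (-1.52 ± 0.23, SE; limma, adjusted p = 8.48e-05), with no overlap. ERO1A, the oxidase that drives disulfide formation in the endoplasmic reticulum, fell from 165 ± 4.68 to 54.2 ± 6.16 TPM in DLD-1 (log2 change -1.60, limma, adjusted p = 1.65e-06) and from 191 ± 17.3 to 65.9 ± 11.3 TPM under the LoVo label (-1.53, limma, adjusted p = 9.33e-07). FUT11, a fucosyltransferase family member, fell from 41.6 ± 0.276 to 13.7 ± 1.78 TPM in DLD-1 (-1.54, limma, adjusted p = 2.11e-07) and from 85.9 ± 3.10 to 36.9 ± 5.56 TPM under the LoVo label (-1.21, limma, adjusted p = 1.04e-06).

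WSB1, a substrate receptor of a ubiquitin ligase, fell 1.57-fold and 1.53-fold (limma, adjusted p = 0.00156 and 0.00107). PPFIA4, a liprin scaffold protein, fell 2.47-fold in DLD-1, from 6.88 ± 1.88 to 2.79 ± 1.20 TPM (log2 change -1.09, limma, adjusted p = 0.00612). LoVo-labelled PPFIA4 measured 13.2, 13.3 and 10.6 TPM untreated and 7.22, 14.8 and 6.99 TPM with alpelisib, and the second alpelisib library lay above all untreated ones (-0.39, limma, adjusted p = 0.266). LoVo EV had the highest PPFIA4 of the 6 groups, at 24.2 ± 2.29 TPM.

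LIN28B with alpelisib was then set against EV, to see where the levels stood relative to cells with neither. In DLD-1, 31 members lay below EV and 1 above, where 20.2% of all genes were lower and 9.71% higher. CA12 was the one above (6.42-fold), BNIP3 and LOXL2 were not called, and the largest falls on the log2(TPM + 1) scale were those of ANKRD37 (3.75-fold; log2 change -1.87, limma, adjusted p = 3.66e-08) and EGLN3 (3.58-fold; -1.82, limma, adjusted p = 7.67e-08). By the ratio of mean TPM, STC1 (7.01-fold) and CA9 (4.0-fold), both scarce, fell more. Under the LoVo label 11 members lay above EV and 12 below, where 32.2% of all genes were higher and 14.7% lower. Under median-of-ratios scaling, which moved the median of all genes by -0.20, the split was 8 and 16. Over all genes that scaling gave 4088 higher and 4429 lower. EGLN3, PLOD2, MXI1, EPAS1 and NDUFA4L2 were among those above EV (2.42, 2.91, 2.14, 3.11 and 22.8-fold), whereas ADM, ANKRD37 and IGFBP3 lay below it (2.21, 1.89 and 4.94-fold). ERO1A, FUT11, VHL, EGLN1 and NDRG1 were not called, with log2 changes of -0.16, 0.14, -0.03, 0.11 and -0.28.

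The members were also compared between the 2 labels within each arm, and the calls differed from arm to arm. In LoVo-labelled against DLD-1 libraries 5 members were higher in both EV and LIN28B. Another 6 were lower in EV and higher in LIN28B, CA9 went from higher to lower, and 12 were lower in EV and not called in LIN28B. How many of all genes had each of these patterns was not counted, so they are not read as particular to the members. In EV, LoVo was higher than DLD-1 for 8 members and lower for 18, where 17.3% and 38.2% of all genes were called. Median-of-ratios scaling, which moved the median of all genes by 0.24, gave 11 and 14, with 5114 of all genes higher and 4834 lower. The 8 were CA9, CA12, BNIP3, LOXL2, ADM, STC1, IGFBP3 and PPFIA4, led by BNIP3 (log2 difference 4.64, limma, adjusted p = 7.21e-12) and CA9 (4.34, limma, adjusted p = 1.71e-09). All 8 calls held in every alternative run that kept 2 or more LoVo EV libraries. LOXL2 reached 1 TPM in only 4 libraries, 3 of them LoVo EV, and so passed the filter through that group. In the LIN28B arm 18 members were higher in the LoVo-labelled libraries and 1, CA9, lower, where 7.96% and 6.02% of all genes were called. With alpelisib 21 were higher and 0 lower, where 11.5% and 7.58% of all genes were called. Median-of-ratios scaling gave 22 and 0, where 1974 of all genes were higher and 2071 lower. At an unadjusted p under 0.05, 22 members were higher and 1 lower in that arm, and all genes were not counted at that threshold. NDUFA4L2, CA12, ANKRD37 and EGLN3 were among those higher in both of these arms. HIF1A itself had log2 differences of -0.10 and -0.09 in these arms, neither called (limma, adjusted p = 0.716 and 0.722).

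Genes around the members were read as whole lists for comparison. Over all tested genes, 21.9% were called lower and 9.05% higher with alpelisib in DLD-1, and 24.6% and 15.1% under the LoVo label. Of 20 glycolytic HIF targets, 20 fell with alpelisib in DLD-1 and 19 under the LoVo label, with median log2 changes of -1.01 and -1.10. Of 26 further hypoxia targets, 20 fell and 2 rose in DLD-1 and 18 fell and 2 rose under the LoVo label. The risers under each label were EDN1, the vasoconstrictor endothelin 1, and KLF6, a zinc finger transcription factor, both named after their values were seen. EDN1 went from 0.898 ± 0.449 to 5.61 ± 0.724 TPM in DLD-1 (log2 change 1.82; limma, adjusted p = 2.46e-05) and KLF6 from 36.1 ± 2.61 to 60.2 ± 4.68 TPM (0.72; limma, adjusted p = 4.43e-05). CA12 was thus not the sole hypoxia-linked gene that rose.

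VHL ligase subunits and HIF cofactors were called lower in 3 of 13 tested in DLD-1 and in 4 of 13 under the LoVo label, where 1 was higher, close to the shares over all genes, and their median changes were -0.10 and -0.06. SIAH2, a ubiquitin ligase that degrades prolyl hydroxylases, fell from 20.3 ± 2.85 to 9.33 ± 0.995 TPM in DLD-1 (log2 change -1.04; limma, adjusted p = 0.000279). HSP90AA1, a chaperone that stabilises HIF1A, fell from 678 ± 50.7 to 481 ± 39.0 TPM (-0.49; limma, adjusted p = 0.000683), and CUL2, the scaffold of the VHL ligase, from 17.8 ± 0.326 to 10.97 ± 1.49 TPM (-0.66; limma, adjusted p = 0.0093). All 3 fell under the LoVo label as well. EGLN2, the prolyl hydroxylase that hypoxia does not induce, was not called, at 38.7 ± 2.37 to 35.3 ± 1.97 TPM in DLD-1 (-0.13; limma, adjusted p = 0.266), beside the fall of EGLN3 above.

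Of 28 tested relatives of the members by gene family, 9 fell and 1 rose in DLD-1 and 11 fell and 4 rose under the LoVo label, with medians of -0.23 and -0.18. The shares over all genes were 21.9% lower and 9.05% higher in DLD-1, and 24.6% and 15.1% under the LoVo label. ERO1B, the paralogue of ERO1A, fell from 19.9 ± 1.57 to 9.34 ± 2.39 TPM in DLD-1 (log2 change -1.04; limma, adjusted p = 0.000207), and MXD1, which like MXI1 opposes MYC, from 16.97 ± 1.05 to 10.5 ± 0.838 TPM (-0.65; limma, adjusted p = 0.000759). The promoter windows of 29 matched relatives held ACGTG in 20.7%, beside 21.6% of all windows. It lay in 41.7% of 12 windows of VHL ligase and cofactor genes, a list called near the shares over all genes. The figures were 42.1% of 19 windows of glycolytic targets and 45% of 20 windows of other hypoxia targets. At least 1 of the cores lay in 83.3% of the ligase and cofactor windows, above the 76.9% of the members. The lists were not tested against each other.

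**Figure D5:**
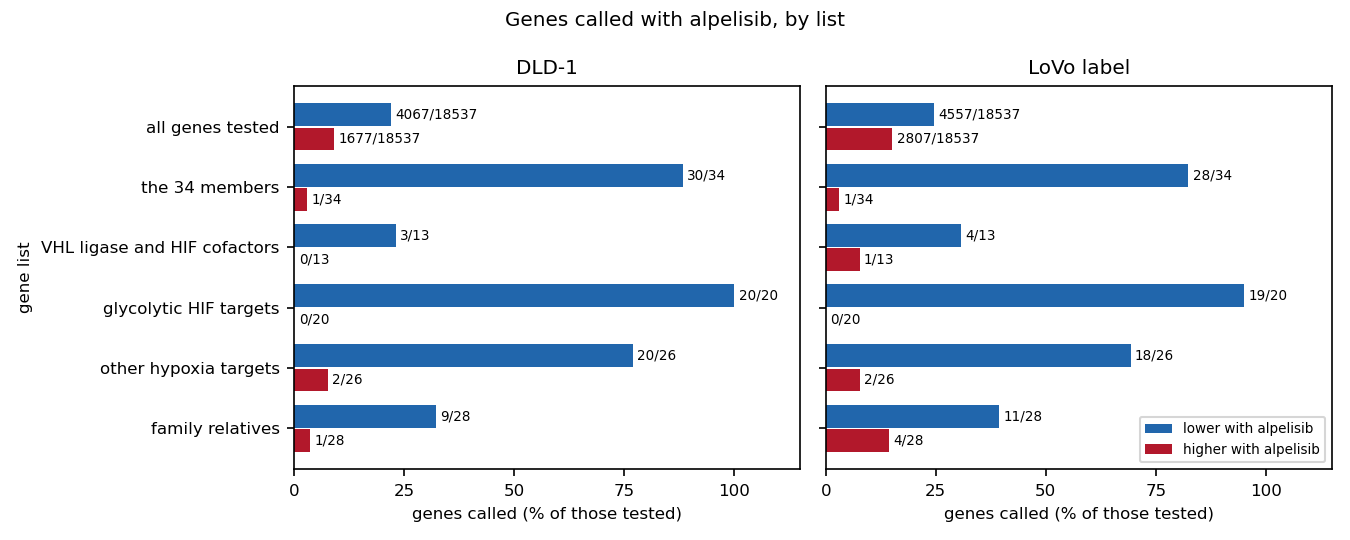
Share of tested genes called lower (blue) or higher (red) with alpelisib, as a percentage of each list, with called and tested counts at the bar ends, in DLD-1 and in the LoVo-labelled libraries. The members and the glycolytic and other hypoxia targets have long blue bars, while the VHL ligase and cofactor list and the relatives lie nearer to all genes.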

How the data were processed

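RNA was measured by poly(A) sequencing in 18 libraries, 3 in each of 6 groups taken from the sample titles. The deposited table gives TPM values (length-scaled shares of a library) per Ensembl gene, made by the authors, with no counts, so depth is unknown and no count model was fitted. The submitters' processing notes name STAR 2.7.10, Picard, HTSeq, DESeq2 and hg38, without roles; strand use in counting is not given in the sources used here. Symbols came from GENCODE 29 for 61757 of 61806 genes. Genes with at least 1 TPM in 3 libraries (18537) were tested on log2(TPM + 1) with limma 3.58.1 (R 4.3.3; trended variance, 1 model of 6 groups, 12 residual degrees of freedom), with Benjamini-Hochberg adjustment over all of them, in 11 comparisons, and called at an adjusted p under 0.05. The scripts were tested on simulated data. Log2 changes understate those of low genes, and folds are ratios of mean TPM. Tables used pandas 2.3.3 and numpy 2.4.6. Alternatives were a pseudocount of 0.1, no filter, median-of-ratios scaling, totals without mitochondrial transcripts, a replicate block, the compared groups alone, and each library left out. All 34 members are named. From each other list at most 4 genes are named, not always those with the smallest p, with EGLN2 as a relative. From the other hypoxia targets only the 2 risers are named. The members and lists were chosen with earlier results of these data known. Exons of 16 members overlap a gene on the opposite strand, and 5 members have named pseudogenes (BNIP3, AK4, HIF1A, EGLN1 and EGLN3), so reads of these could not be told apart with certainty.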

Additional observations from a re-analysis of the deposited data

Results flagged for a closer look

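The effect of LIN28B against EV differed between the 2 line labels, in a test of the difference itself (limma, adjusted p under 0.05 over all genes), for 28 members, where 30.4% of all genes were called higher and 12.4% lower. Values are the change under the LoVo label minus that in DLD-1, in log2. The difference was positive for HIF1A (0.64), EPAS1 (1.63), ARNT (1.35), VHL (0.73), EGLN1 (0.57), EGLN3 (2.45), BNIP3L (1.62), FAM162A (0.40), NDUFA4L2 (5.22), AK4 (0.85), P4HA1 (1.86), P4HA2 (1.02), PLOD2 (2.13), LOX (1.45), VEGFA (1.97), ADM (0.53), KDM3A (1.04), MXI1 (2.01), RORA (1.01), NDRG1 (1.63), ANKRD37 (1.97), ERO1A (1.32), FUT11 (1.22) and WSB1 (0.84). It was negative for CA9 (-5.30), BNIP3 (-2.71), LOXL2 (-2.84) and IGFBP3 (-0.55). These differences rest on LoVo-labelled LIN28B libraries closer to DLD-1 than to LoVo EV, so the effect of LIN28B and a difference in the cells cannot be told apart. The effect of alpelisib differed between the LoVo-labelled and the DLD-1 libraries for 2 members, where 0.637% of all genes were called higher and 0.21% lower: ADM (-0.75) and ANKRD37 (-0.9996), both with the larger fall under the LoVo label. Both comparisons use the LoVo-labelled and DLD-1 LIN28B libraries.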

How the results depend on the processing

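The count of members called for LIN28B against EV in DLD-1 (0) became 1 with a pseudocount of 0.1, 2 under median-of-ratios scaling, 2 without mitochondrial transcripts and 3 in the fit of only the groups compared, and 0 to 1 with 1 library left out. Over all genes the same contrast gave 290 calls with no filter on low values, against 469, and 185 to 228 with 1 library left out. With LoVo EV replicates 1 and 2 both left out, an alternative chosen after seeing the data, calls over all genes fell to 6868 (from 10530) for LIN28B against EV under the LoVo label, to 6223 (from 10294) for LoVo against DLD-1 in EV and to 5021 (from 7923) for the difference of the LIN28B effects. Calls for the difference of the alpelisib effects rose to 262 (from 157) under median-of-ratios scaling and were 82 to 149 with 1 library left out. The cause was not tested. Under median-of-ratios scaling the sign turned for FAM162A (-0.0688), PLOD1 (-0.19) and KDM4B (-0.0318) in LIN28B against EV under the LoVo label, and for FAM162A for LoVo against DLD-1 in EV (0.0487). PLOD1 also turned without mitochondrial transcripts (-0.0293) and without LoVo EV replicates 1 and 2 (-0.0697). With alpelisib under the LoVo label HIF1AN turned without LoVo-labelled alpelisib replicate 3 (0.073, in a range of -0.4451 to 0.073 with 1 library left out), and LOXL2 without LoVo-labelled LIN28B replicate 2 (0.0892) or LoVo-labelled alpelisib replicate 1 (0.1106). The replicate numbers did not pair the samples: deviations of same-numbered libraries correlated at -0.30 to 0.14, and 4 of 45 values were above 0.1. A fit with the number as a replicate block called 0 members for LIN28B in DLD-1, 31 for LIN28B under the LoVo label, 31 and 29 for alpelisib in DLD-1 and under the LoVo label, and 314 genes in all for LIN28B in DLD-1.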
